A study of Homo sapiens with 9 samples.

Results

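The KRAB zinc finger genes of chromosome 19p12 and the adjacent part of 19p13.11 were followed as a group of 37 genes, chosen by symbol as KRAB zinc finger genes of that region. All 37 were found among the 40332 gene symbols of the count table, and all 37 were among the 15179 genes with enough counts to test. In GENCODE 29 annotation of the hg38 genome they lie between chr19:19668796-24129961, a stretch of 4.46 Mb, with 20 genes on the plus strand and 17 on the minus strand, and all are annotated as protein-coding. Another 80 genes of the table lie in the same stretch, none of them coding, and 10 of these could be tested. The 9 RNA-seq libraries, in 3 groups, came from wild-type H1 cells, an established line of human embryonic stem cells. Cells of the first group were cultured in PXGL, which keeps them in a naive, preimplantation-like state by blocking several kinases and tankyrase and adding LIF. The N2B27 group was moved to N2B27, the basal medium alone, and the sources used here give no time for this. The third group received 5 µM EPZ-6438, which blocks the methyltransferase activity of EZH2, in N2B27 for 3 days. Each group holds 3 libraries that share the H1 line, and the labels do not say whether they were separate cultures. P-values therefore rest on library-to-library spread, which may be technical.

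KRAB zinc finger proteins bind DNA through arrays of C2H2 fingers, and many of them recognise transposable elements. Their KRAB domain recruits TRIM28, which brings the H3K9 methyltransferase SETDB1, HP1 proteins and histone deacetylases, so that the bound sequence is packed into heterochromatin. The 19p12 genes arose by repeated tandem duplication during primate evolution. Among them ZNF91 is known to repress SVA retrotransposons and ZNF93 to repress young LINE-1 elements in pluripotent cells. For most of the others no target is named here.

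The promoters of these genes resemble each other, and RefSeq holds a promoter window (250 bases before to 50 bases after the gene start, assembly GRCh38.p14) for 29 of the 37. The last 170 bases of the window are printed for 4 genes that were higher in N2B27 than in PXGL, namely ZNF93 (chr19:19900826-19900995, plus strand), ZNF66 (chr19:20776184-20776353, plus strand), ZNF90 (chr19:20077880-20078049, plus strand) and ZNF682 (chr19:20039206-20039375, minus strand). The same is printed for ZNF208 (chr19:22010894-22011063, minus strand), the member with the highest level, and for 2 genes that were lower in N2B27, ZNF730 (chr19:23116905-23117074, plus strand) and ZNF91 (chr19:23395422-23395591, minus strand). They are shown so that the repeated blocks can be compared between genes that moved in opposite directions. Capitals mark exact matches, on either strand, to TCCAATCAG, which holds the CCAAT box bound by the factor NF-Y, and to CTTCCGG, a string of the kind that ETS family factors bind.
ZNF93: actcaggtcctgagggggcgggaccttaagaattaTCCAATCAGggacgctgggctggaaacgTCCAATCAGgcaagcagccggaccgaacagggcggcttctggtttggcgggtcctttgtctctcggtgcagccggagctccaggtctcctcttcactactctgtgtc
ZNF66: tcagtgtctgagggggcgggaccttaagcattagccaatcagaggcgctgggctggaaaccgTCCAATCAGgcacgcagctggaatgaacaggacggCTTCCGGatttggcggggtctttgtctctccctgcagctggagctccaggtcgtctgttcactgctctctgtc
ZNF90: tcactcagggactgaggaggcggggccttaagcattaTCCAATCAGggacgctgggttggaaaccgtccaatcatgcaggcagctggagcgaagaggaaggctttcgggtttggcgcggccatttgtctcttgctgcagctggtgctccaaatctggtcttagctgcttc
ZNF682: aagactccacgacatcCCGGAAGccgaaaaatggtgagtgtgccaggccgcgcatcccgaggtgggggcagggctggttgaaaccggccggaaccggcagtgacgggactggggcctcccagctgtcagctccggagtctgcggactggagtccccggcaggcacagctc
ZNF208: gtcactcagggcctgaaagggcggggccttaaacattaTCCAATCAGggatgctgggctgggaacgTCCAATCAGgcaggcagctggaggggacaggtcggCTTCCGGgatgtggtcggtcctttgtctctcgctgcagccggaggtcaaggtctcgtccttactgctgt
ZNF730: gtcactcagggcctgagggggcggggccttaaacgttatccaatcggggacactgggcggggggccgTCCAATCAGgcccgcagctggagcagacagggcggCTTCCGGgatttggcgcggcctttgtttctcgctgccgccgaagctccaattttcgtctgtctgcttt
ZNF91: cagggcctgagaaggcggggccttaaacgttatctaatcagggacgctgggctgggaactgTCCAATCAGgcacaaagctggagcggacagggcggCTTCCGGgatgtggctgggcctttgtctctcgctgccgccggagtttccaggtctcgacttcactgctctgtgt

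The string TCCAATCAG stood in 28 of the 29 member promoters (96.6%), and 13 of the 29 (44.8%) held at least 2 copies. The exception was ZNF682, whose printed window holds a CTTCCGG match on its opposite strand and no copy of the CCAAT string. Over all 27305 RefSeq promoters of the same length, 0.908% held TCCAATCAG. Among other genes with a ZNF symbol it stood in 11.8% of 187 promoters on chromosome 19 and in 8.49% of 212 promoters on other chromosomes. CTTCCGG stood in 22 member promoters (75.9%) against 10.5% of all promoters, and in 38% and 29.7% of those other ZNF promoters. A further string, CTTTGTCTCTC, visible near the gene start in the windows of ZNF93, ZNF66, ZNF208 and ZNF91, stood in 16 member promoters (55.2%) against 0.139% of all. No match of 1 string overlapped a match of another in these promoters. The letters of the 3 strings were picked after the member promoters had been read, so the shares describe these promoters and test nothing. A match is a run of letters and was not shown to be a binding site.

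By the change from PXGL to N2B27, TCCAATCAG stood in 5 of the 6 promoters of genes that rose, in 9 of 9 of genes that fell and in 14 of 14 of genes that did not pass the test. CTTCCGG stood in 3 of the 6, 8 of the 9 and 11 of the 14. At least 2 copies of TCCAATCAG stood in 1, 2 and 10 of these promoters, respectively. Over 406 pairs of member promoters the median identity was 75.8%, with a maximum of 91% between ZNF714 and ZNF431, against a median of 50.1% over 17391 pairs of other ZNF promoters on chromosome 19. Without ZNF14, ZNF101 and ZNF682 the member median was 77.3%. No promoter entry was found for ZNF98, ZNF729, ZNF99, ZNF728, ZNF253, ZNF676, ZNF738 and ZNF506.

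**Figure D1:**
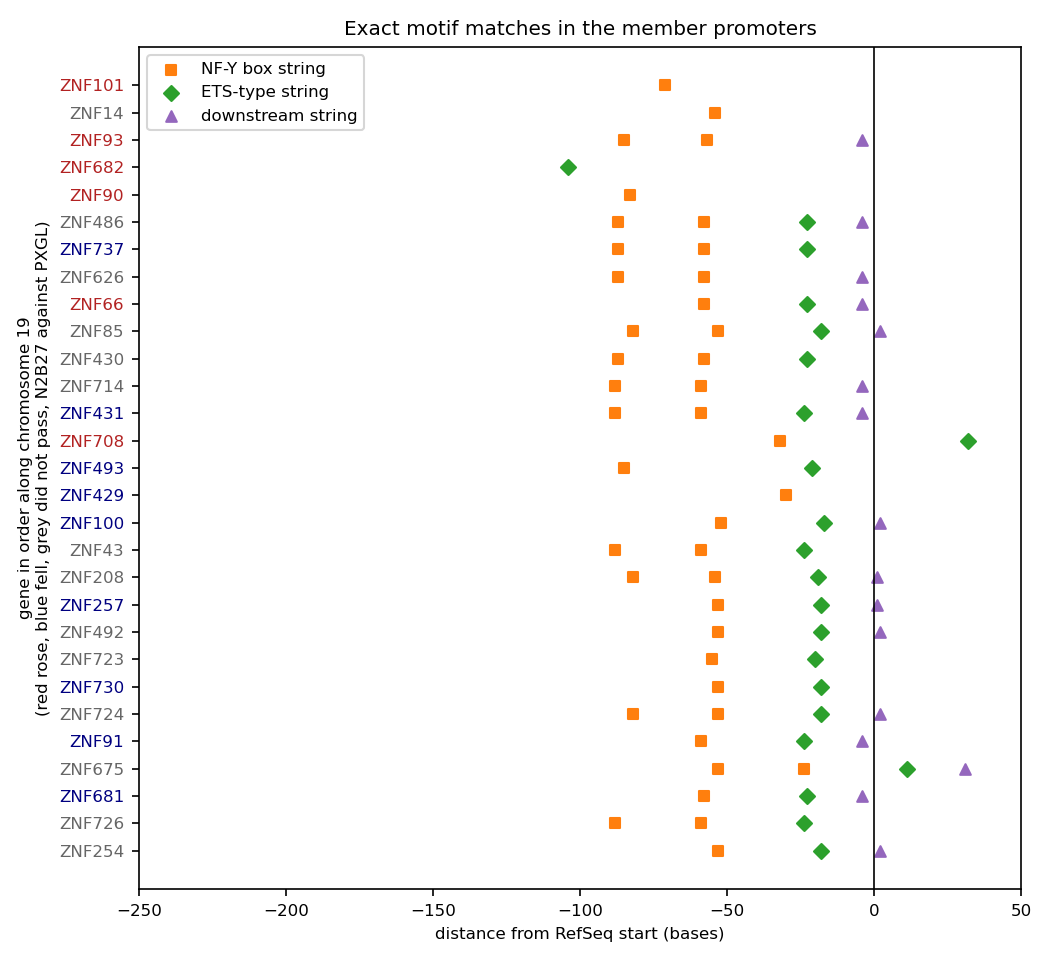
Positions of exact matches to TCCAATCAG (squares), CTTCCGG (diamonds) and CTTTGTCTCTC (triangles) in the 29 member promoters, as distance in bases from the RefSeq gene start, with genes in order along chromosome 19 and label colour by the change from PXGL to N2B27. In most genes the squares fall in 1 or both of 2 bands upstream of the start, as in ZNF208 at -82 and -54, while ZNF682 has no square.

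Library totals were 14482105 to 18358530 counts, and the 37 members together took 0.196% to 0.264% of them. The label of human embryonic stem cells was checked against markers: POU5F1, NANOG, SOX2, SALL4 and LIN28A summed to 2860 to 3150 CPM (read counts scaled to a common library size) in PXGL, 3980 to 4030 in N2B27 and 3280 to 3320 with the inhibitor. Most of the higher sum in N2B27 came from LIN28A (917 CPM in PXGL and 1770 CPM in N2B27 in the mean), and SALL4 also rose. POU5F1 and NANOG did not pass the test in N2B27 against PXGL, and SOX2 fell (log2 -0.19). With the inhibitor all 5 were lower than in N2B27. The 7 naive markers summed to 2760 to 3420, 2300 to 2330 and 2410 to 2500 CPM in PXGL, N2B27 and with the inhibitor, and the 6 primed and formative markers to 45 to 47.6, 736 to 752 and 394 to 399 CPM. Of the naive markers, DPPA5, DNMT3L and OLAH fell in N2B27 against PXGL and 4 did not pass. With the inhibitor against N2B27, KLF17, DNMT3L and SUSD2 rose, DPPA5, DPPA3 and KHDC3L fell, and OLAH did not pass. All 6 primed and formative markers rose in N2B27 against PXGL, and with the inhibitor against N2B27 ZIC2 rose and 4 fell. Summed markers of mesendoderm (9.38 to 11.2, 18.2 to 21.3 and 129 to 138 CPM), hypoblast (13.2 to 14, 20.3 to 21.2 and 35.8 to 39.8 CPM, with APOA1 at 0 in every library) and fibroblasts (14.5 to 19.7, 164 to 177 and 84.3 to 88.2 CPM, with DCN at 0 in both N2B27 groups) were also higher outside PXGL. Of the mesendoderm list TBXT and MIXL1 rose in N2B27 against PXGL, while EOMES did not pass (0.698 and 0.433 CPM in the mean). MESP1 had too few counts to test. Most of the fibroblast sum in N2B27 was THY1 (0.623 CPM in PXGL and 118 CPM in N2B27 in the mean), and COL1A1 and COL1A2 also rose. Most of the hypoblast sum in N2B27 was GATA4 (7.6 CPM in PXGL and 14 CPM in N2B27 in the mean). GATA6 rose from 0.312 to 0.731 CPM, PDGFRA did not pass the test, and SOX17 and FOXA2 had too few counts to test. The trophectoderm sum was 4.72 to 6.68, 7.38 to 8.6 and 15 to 19.3 CPM, but of its 4 tested genes only KRT7 rose in N2B27 (1.10 to 4.95 CPM in the mean), while CDX2 and GATA3 fell. The neuroectoderm sum (140 to 172, 291 to 324 and 331 to 357 CPM) was nearly all NES, which is widely expressed, and group means of PAX6 and SOX1 were at most 0.577 CPM. EZH2, whose activity and not its gene is the inhibitor's target, was at 72 CPM in N2B27 and 82.5 CPM with the inhibitor (log2 0.20, adjusted p = 0.0415 in edgeR's quasi-likelihood test). The part of these shifts in the results below was not tested, and in bulk RNA fewer cells of a type and less RNA per cell cannot be told apart.

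Within the PXGL group, replicate 1 differed from the other 2 libraries more than they did from each other. Its counts differed from replicates 2 and 3 by a chi-square per degree of freedom of 19.6 and 26.3, where replicates 2 and 3 differed by 3.41. Among the members it was the lowest PXGL library for 19 of 37 genes (51.4%, against 39.8% of all tested genes). For 10 members it lay below 0.8 of the mean of the other 2 libraries (27%, against 20.2% of all tested genes), and for none as far above it on the log scale. The lowest ratios were 0.589 for ZNF208, 0.596 for ZNF729, 0.643 for ZNF724 and 0.654 for ZNF723. These low ratios lay mostly towards the centromere: of the 10 genes, none came from the 8 members from ZNF101 to ZNF486, and 4 of 8 and 4 of 9 came from the stretches from ZNF43 to ZNF99 and from ZNF723 to ZNF254. The main counts, and the calls that this library decides, are therefore given with and without it.

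Every member was expressed in every group, with group means from 4.82 CPM (ZNF730 in N2B27) to 480 CPM (ZNF208 in PXGL). Levels here are CPM scaled by TMM, a trimmed-mean method that equalises library composition. The sum over all 37 genes, which does not depend on how reads are split between similar members, was 2374 ± 261 CPM in PXGL (SD, n = 3; 2077, 2481 and 2564 in replicates 1 to 3). It was 2063 ± 68.5 CPM in N2B27 (2003, 2049 and 2138) and 2019 ± 35.6 CPM with the inhibitor (2009, 2058 and 1989). The highest N2B27 library lay above PXGL replicate 1, so these groups overlapped, while all 3 inhibitor libraries lay below every PXGL library. The sum in N2B27 was 0.869 of that in PXGL, and 0.953 when ZNF208 and ZNF729 were left out, so most of the lower sum came from these 2 genes. These ratios were 0.818 and 0.933 without PXGL replicate 1.

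Per kilobase of exon, which allows genes to be compared with each other, ZNF208 ranked the highest in all 3 groups at 69.9, 55.3 and 53.9 CPM per kb in PXGL, N2B27 and with the inhibitor. In PXGL it was followed by ZNF729 at 62 CPM per kb, whose libraries overlapped with those of ZNF208, and then by ZNF486 at 33.6 and ZNF676 at 33.5 CPM per kb, which also overlapped. These 4 kept their order without PXGL replicate 1, at 81, 71.7, 35.3 and 35.1 CPM per kb. In N2B27 the order was ZNF208, ZNF486 (37.4 CPM per kb), ZNF90 (32) and ZNF729 (27.9), and only the last 2 of these overlapped. The lowest per kb were ZNF726 in PXGL (1.78) and with the inhibitor (1.79), and ZNF730 in N2B27 (1.46). Of the 36 neighbouring pairs in the order, 28 overlapped in PXGL, 24 in N2B27 and 26 with the inhibitor, so much of the ranking in the middle is not resolved by 3 libraries. The spread between replicates was moderate, with a median coefficient of variation over members of 9.41%, 5.94% and 5.73% in the 3 groups, against 12%, 7.76% and 7.72% over all tested genes. The widest among members was that of ZNF208 in PXGL at 27.7%.

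Changes between groups were small for most members. The highest group mean exceeded the lowest by a median of 1.27-fold, with a maximum of 2.31-fold for ZNF730, and 6 members passed 1.5-fold. The highest mean was in PXGL for 22 members, in N2B27 for 8 and with the inhibitor for 7.

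**Figure D2:**
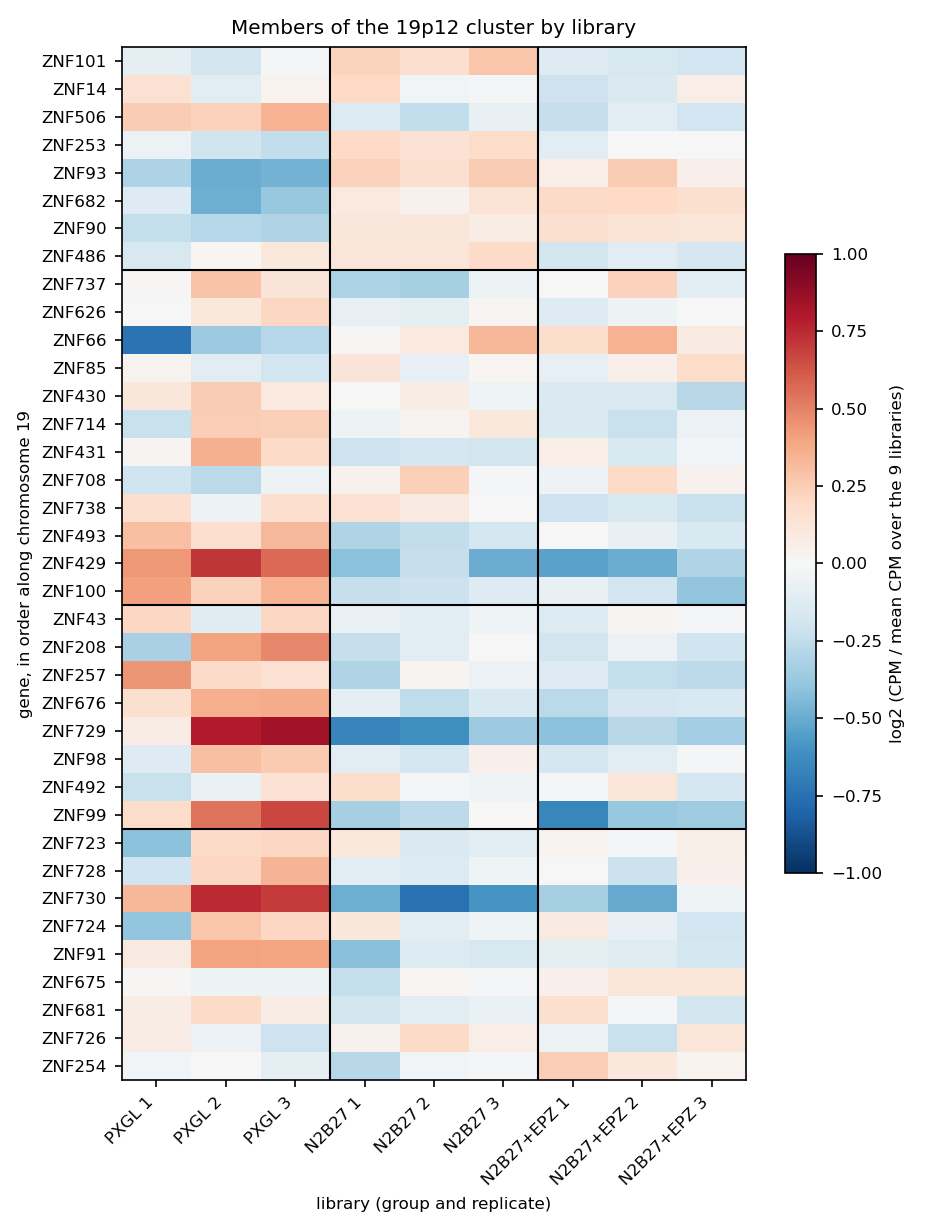
Level of each member (rows, in order along chromosome 19) in each library (columns), as log2 of CPM over the gene's mean CPM in all 9 libraries. Black lines separate the 3 groups and the 4 stretches of the cluster. ZNF429, ZNF729, ZNF99 and ZNF730 are the reddest rows in PXGL and ZNF93 is blue there, and PXGL replicate 1 is paler or bluer than replicates 2 and 3 in the lower 2 stretches.

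The comparison of N2B27 with PXGL asks what changed when the naive medium was withdrawn. By edgeR's quasi-likelihood test with Benjamini-Hochberg adjustment over all 15179 genes (adjusted p under 0.05), 20 of the 37 members changed, 7 higher and 13 lower in N2B27, and 17 did not pass. Over all tested genes 56% passed, 27.3% higher and 28.7% lower, so the total among members was near the background, and 18.9% of members were higher and 35.1% lower. The median log2 fold change was -0.15 over members and -0.03 over all genes. The libraries of the 2 groups did not overlap for 8 members that were higher and 14 that were lower, where this held for 60.8% of all genes, 29.4% higher and 31.3% lower. Without PXGL replicate 1 the count was 26 members, the same 7 higher and 19 lower, with 61.2% of all genes passing.

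ZNF730 (chr19:23075210-23147219) fell the most. Its levels were 9.21, 12.3 and 11.9 CPM in PXGL and 5.22, 4.36 and 4.87 CPM in N2B27. Every N2B27 library was below every PXGL library, a 2.31-fold decrease (log2 -1.21, SE 0.18, adjusted p = 1.94e-05). ZNF729 (chr19:22286408-22317176) followed, with 166, 273 and 282 CPM in PXGL and 99.7, 103 and 123 CPM in N2B27. The groups did not overlap although PXGL replicate 1 lay far below the other 2, and the fall was 2.22-fold (log2 -1.15, SE 0.18, adjusted p = 0.000361). Without that library it was larger, at log2 -1.36 (adjusted p = 1.1e-15; 1.1e-15 to 0.0056 over 17 alternatives). ZNF429 (chr19:21496682-21556270) went from 19.6, 23.9 and 21.5 CPM to 10.9, 12.4 and 10.3 CPM, a 1.93-fold fall (log2 -0.95, SE 0.12, adjusted p = 6.47e-06). These 3 genes fell by similar factors from levels that differed widely.

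ZNF99 (chr19:22752183-22784107) fell 1.59-fold, from 36.3 ± 6.10 to 22.8 ± 2.92 CPM (SD, n = 3; log2 -0.67, adjusted p = 0.000366). ZNF91, the SVA repressor (chr19:23304991-23395560), was at 61.9, 76.7 and 76.4 CPM in PXGL and at 43.4, 52.7 and 52 CPM in N2B27. All N2B27 libraries lay below all PXGL libraries, a 1.45-fold fall (log2 -0.54, SE 0.09, adjusted p = 0.000142). ZNF100 was at 77.8 ± 4.81 CPM in PXGL and 54.2 ± 2.14 CPM in N2B27, a 1.44-fold fall (adjusted p = 6.75e-05). For ZNF676 the fall was 1.38-fold, between 104 ± 8.27 and 75.2 ± 4.36 CPM (adjusted p = 6.74e-05). The remaining decreases were ZNF493, ZNF506, ZNF431, ZNF257, ZNF737 and ZNF681, by log2 -0.50 to -0.24. ZNF737 and ZNF681 are the weakest of these, since their calls ended in some alternatives, with adjusted p up to 0.0677 for ZNF737 (without PXGL replicate 2) and 0.126 for ZNF681 (without N2B27 replicate 1).

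ZNF93, the LINE-1 repressor (chr19:19900913-19963464), rose the most. It was at 39.8, 35 and 35.6 CPM in PXGL and at 57.9, 55.1 and 58.7 CPM in N2B27. Every N2B27 library was above every PXGL library, a 1.56-fold increase (log2 0.64, SE 0.08, adjusted p = 6.64e-06). ZNF66 (chr19:20776304-20807322) rose 1.52-fold from 9.65, 12.5 and 13.2 CPM to 16.2, 17.2 and 20.2 CPM (log2 0.60, SE 0.14, adjusted p = 0.00132). ZNF90, one of the most abundant members, rose from 127, 123 and 122 CPM to 162, 162 and 158 CPM, a 1.30-fold increase with little spread in either group (log2 0.37, SE 0.06, adjusted p = 3.27e-05). ZNF682 was at 39.9 ± 5.26 CPM in PXGL and 53.3 ± 1.76 CPM in N2B27, a 1.33-fold increase (adjusted p = 0.000809). ZNF253, at 32.1 ± 2.20 and 40.7 ± 0.838 CPM, rose 1.27-fold (adjusted p = 0.00226), and ZNF101, at 59.8 ± 3.58 and 74.5 ± 2.89 CPM, rose 1.25-fold (adjusted p = 0.00121). ZNF708 passed narrowly (log2 0.26, adjusted p = 0.0461), with adjusted p of 0.0293 to 0.208 over the alternatives, the highest without N2B27 replicate 2. ZNF91 and ZNF93 thus moved in opposite directions. All 20 calls held without PXGL replicate 1, with log2 fold changes of -1.33 for ZNF730, -1.02 for ZNF429, -0.79 for ZNF99, -0.63 for ZNF91, -0.48 for ZNF100 and -0.53 for ZNF676. The increases of ZNF93, ZNF66 and ZNF90 were then 0.70, 0.48 and 0.39.

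ZNF208 (chr19:21932958-22010949), the most abundant member, showed what PXGL replicate 1 decides. It was at 328, 541 and 572 CPM in PXGL, 350, 381 and 409 CPM in N2B27 and 361, 393 and 357 CPM with the inhibitor. PXGL replicate 1 lay below every other library, while replicates 2 and 3 lay above all of them. The change in N2B27 did not pass (log2 -0.34, SE 0.17, adjusted p = 0.126), and without PXGL replicate 1 it did (log2 -0.55, adjusted p = 2.77e-08; up to 0.439 over the alternatives). ZNF714, ZNF723, ZNF724, ZNF728 and ZNF98 likewise passed as lower only without that library, at log2 -0.22, -0.25, -0.25, -0.37 and -0.35. With all libraries, ZNF98 was at log2 -0.23 (adjusted p = 0.0798) and ZNF43 at log2 -0.18 (adjusted p = 0.144). ZNF14 (log2 0.02, SE 0.13, adjusted p = 0.879) and ZNF675, known as a regulator of TRAF6 signalling (log2 -0.04, SE 0.08, adjusted p = 0.655), had the smallest estimates with ZNF738. The other members that did not pass were ZNF486, ZNF626, ZNF85, ZNF430, ZNF492, ZNF726 and ZNF254, between log2 -0.16 and 0.16.

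The calls were also counted in 4 stretches, ordered from the telomeric to the centromeric end and chosen with earlier results of these data known. Among all genes 27.3% were higher and 28.7% lower. The 8 genes from ZNF101 to ZNF486 held 5 of the 7 increases and 1 decrease, ZNF506. The 12 genes from ZNF737 to ZNF100 held the other 2 increases, ZNF66 and ZNF708, and 5 decreases. The 8 genes from ZNF43 to ZNF99 held 4 decreases and no increase, and the 9 genes from ZNF723 to ZNF254 held 3 decreases and no increase. Without PXGL replicate 1 the counts were 5 and 1, 2 and 6, 0 and 6, and 0 and 6. The summed level of the ZNF101 to ZNF486 stretch went from 491.5 ± 10.9 CPM in PXGL to 590.7 ± 10.1 CPM in N2B27. The sums of the other 3 stretches, in the same order, went from 457 ± 17.4 to 398.4 ± 6.42 CPM, from 1059 ± 211 to 756.8 ± 47.2 CPM and from 366.3 ± 32.7 to 317.5 ± 11.8 CPM. The N2B27 sums were 1.20, 0.854, 0.642 and 0.825 of the PXGL sums without PXGL replicate 1. At an unadjusted p under 0.05, no member of the last 2 stretches was higher and 5 and 3 were lower. The share of all genes at that threshold was not counted. DESeq2's Wald test called no member of these 2 stretches higher and 4 and 2 lower, where it called 45.2% of all genes it tested. No test of position was made, and the counts describe these genes only. PXGL replicate 1 was itself unevenly low along the cluster, and the counts of the ZNF101 to ZNF486 stretch were the same without it.

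**Figure D3:**
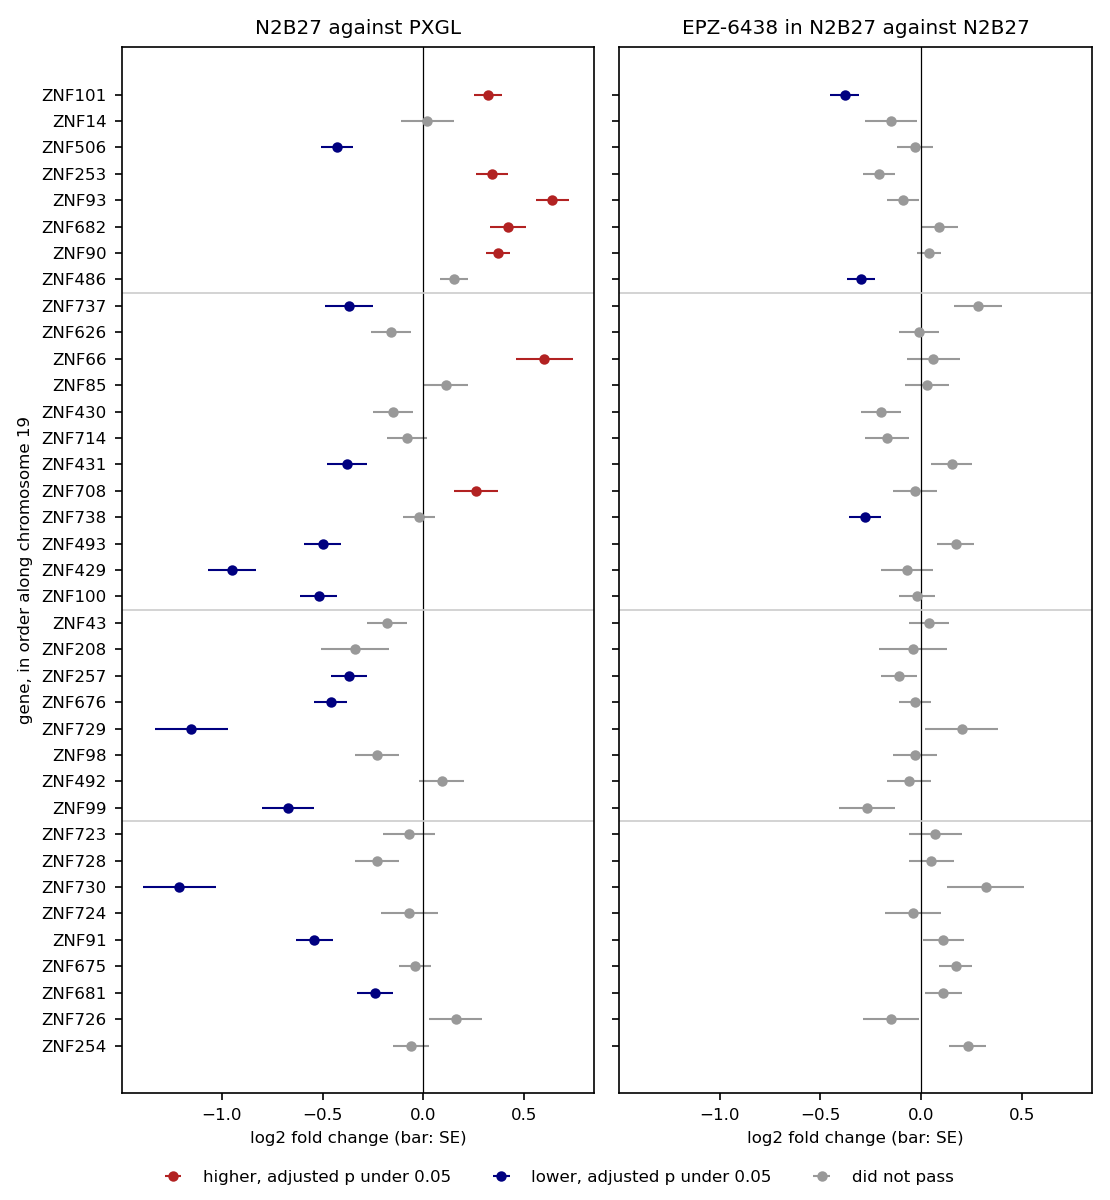
Log2 fold change of each member with its SE, in order along chromosome 19, for N2B27 against PXGL (left) and for EPZ-6438 in N2B27 against N2B27 (right); grey points did not pass adjusted p under 0.05 and grey lines separate the 4 stretches. On the left 7 genes are higher and 13 lower, with ZNF730 at -1.21 and ZNF93 at 0.64, and on the right 3 genes are lower.

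The comparison of EPZ-6438 with N2B27 alone asks what loss of EZH2 activity changed. Of 37 members none rose, 3 fell and 34 did not pass (edgeR's quasi-likelihood test, adjusted p under 0.05), where 24.7% of all tested genes passed, 14.2% higher and 10.6% lower. The 3 make up 8.11% of members. At an unadjusted p under 0.05, 3 members were higher (ZNF737, ZNF675 and ZNF254) and 4 lower (ZNF101, ZNF253, ZNF486 and ZNF738). The share of all genes at that threshold was not counted, so these counts have no background. DESeq2's Wald test called none higher and 3 lower, where it called 21.4% of all genes it tested. The groups did not overlap for 6 members that were higher and 7 that were lower, where this held for 46.4% of all genes, 23.9% higher and 22.6% lower. The median log2 fold change was -0.03 over members and 0.01 over all genes, and the members' values ran from -0.38 to 0.32. A member that did not pass is not shown to be equal in both groups. The time in N2B27 of the untreated group is not given, so the drug and the time out of PXGL cannot be told apart here.

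ZNF101 (chr19:19668796-19683509), at the 19p13.11 edge of the group, fell the most, from 74.6, 71.6 and 77.4 CPM in N2B27 to 58.5, 57.3 and 56.1 CPM with the inhibitor. The groups did not overlap and the fall was 1.30-fold (log2 -0.38, SE 0.07, adjusted p = 0.000906). With the inhibitor it stood near its PXGL level of 59.6, 56.4 and 63.5 CPM, and the inhibitor and PXGL groups overlapped. ZNF486 (chr19:20167228-20200490) fell 1.23-fold from 157, 157 and 164 CPM to 127, 133 and 128 CPM (log2 -0.30, SE 0.07, adjusted p = 0.00409). ZNF738 fell 1.21-fold from 77.2, 74 and 69.6 CPM to 60.4, 62.5 and 59.5 CPM (log2 -0.28, SE 0.08, adjusted p = 0.0147). The ZNF738 call ended when any of 3 libraries was left out, with adjusted p up to 0.0746 without N2B27 replicate 1 and a range of 0.000221 to 0.0746 over the alternatives. ZNF101 and ZNF486 passed in every alternative except the test against a 1.5-fold change, with adjusted p up to 0.00858 and 0.0271.

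Without PXGL replicate 1, which takes no part in this comparison except through the shared estimate of spread, 10 members passed, 4 higher and 6 lower, beside 37.2% of all genes. When only these 2 groups were fitted 10 members also passed, 4 higher and 6 lower, beside 38.7% of all genes. In both fits the 7 members gained were ZNF253, ZNF714 and ZNF99, lower at log2 -0.21, -0.17 and -0.27 without that library, and ZNF737, ZNF729, ZNF675 and ZNF254, higher at log2 0.28, 0.20, 0.17 and 0.23. Their adjusted p ran from 0.00978 for ZNF729 to 0.0306 for ZNF737 in the fit without PXGL replicate 1. By stretch, from the telomeric end, the higher and lower calls in both fits were 0 and 3 of 8 members, 1 and 2 of 12, 1 and 1 of 8, and 2 and 0 of 9. In the main fit no member was higher, and position was not tested. ZNF729 itself was at 99.7, 103 and 123 CPM in N2B27 and 119, 130 and 125 CPM with the inhibitor, so these groups overlapped.

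The remaining members named here gave small estimates with the inhibitor. ZNF91 was at 49.4 ± 5.14 CPM without and 53.2 ± 1.61 CPM with the inhibitor (log2 0.11, SE 0.10, adjusted p = 0.455). ZNF93 was at 57.3 ± 1.90 and 53.9 ± 4.33 CPM (log2 -0.09, SE 0.08, adjusted p = 0.479). For ZNF208, ZNF676, ZNF98 and ZNF43 the log2 fold change was -0.04, -0.03, -0.03 and 0.04, with adjusted p of 0.803 or more, and for ZNF14 it was -0.15 (adjusted p = 0.447). ZNF730, at 4.82 ± 0.434 and 6.04 ± 0.990 CPM, had the highest estimate, log2 0.32 with an SE of 0.19 (adjusted p = 0.224).

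**Figure D4:**
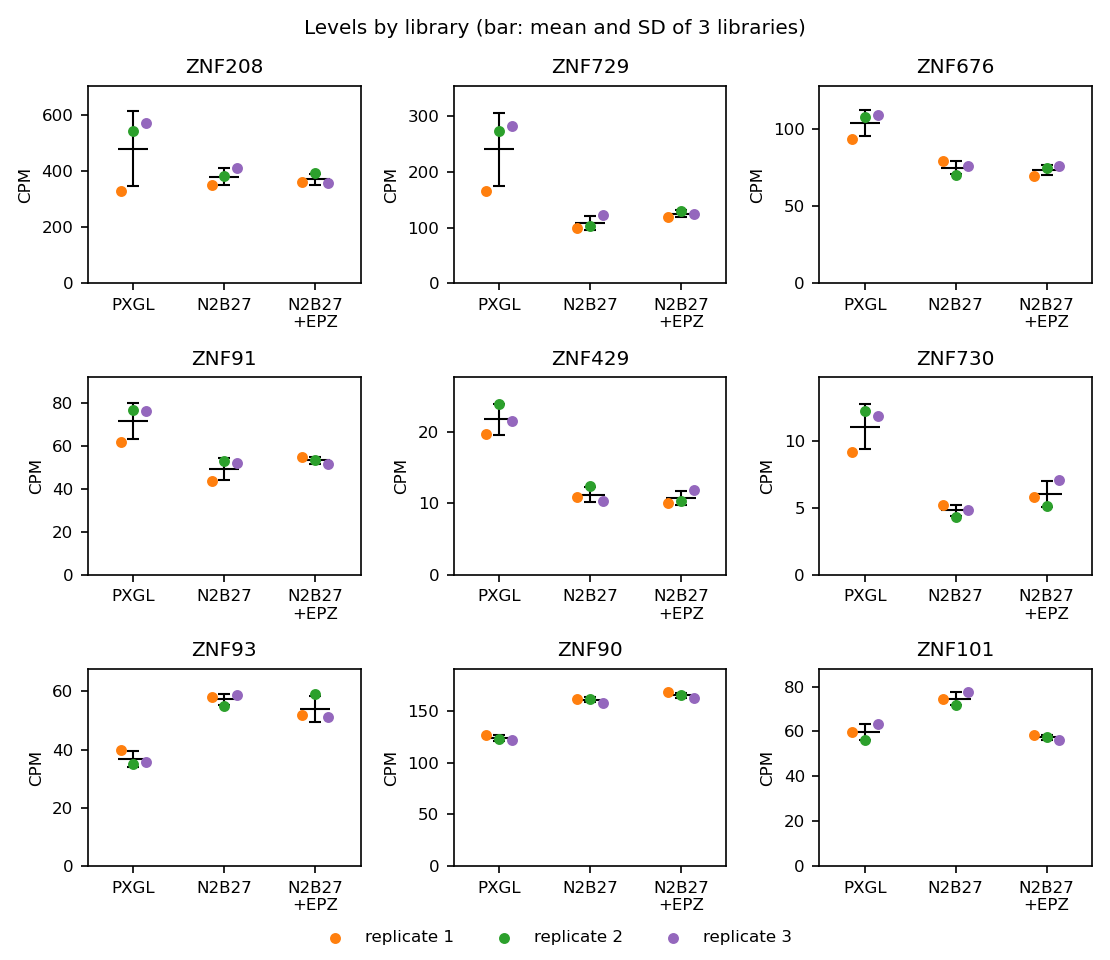
CPM of 9 members in each library, coloured by replicate, with the mean and SD of the 3 libraries per group as black bars; every axis starts at 0. PXGL replicate 1 lies apart for ZNF208 (328 CPM) and ZNF729 (166 CPM), ZNF93 and ZNF90 are higher in both N2B27 groups, and ZNF101 is high in N2B27 alone.

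Set against PXGL, the inhibitor group showed 17 members changed, 4 higher and 13 lower, where 56.1% of all tested genes passed, 28.1% higher and 28% lower. This comparison shares the PXGL libraries with the comparison of N2B27 and PXGL and the inhibitor libraries with the one before, so its values are given beside theirs and are not a separate line of evidence. The groups did not overlap for 7 members that were higher and 13 that were lower, where this held for 60.7% of all genes, 30.6% higher and 30.1% lower. The largest decreases were ZNF429 (2.03-fold, log2 -1.02, adjusted p = 2.99e-06), ZNF729 (1.93-fold, log2 -0.95, adjusted p = 0.0012), ZNF99 (1.91-fold, log2 -0.94, adjusted p = 1.42e-05) and ZNF730 (1.85-fold, log2 -0.89, adjusted p = 0.000305). The increases were ZNF66 (1.58-fold, log2 0.66), ZNF93 (1.46-fold, log2 0.55), ZNF682 (1.42-fold, log2 0.50) and ZNF90 (1.33-fold, log2 0.42), with adjusted p from 1.07e-05 to 0.000578. ZNF100, ZNF676, ZNF257, ZNF506, ZNF91, ZNF430, ZNF493, ZNF738 and ZNF431 were lower by log2 -0.54 to -0.23. The call of ZNF431 (adjusted p = 0.0469) ended in several alternatives, at up to 0.232 without PXGL replicate 2. ZNF208 did not pass (log2 -0.38, adjusted p = 0.0933), and passed without PXGL replicate 1 (log2 -0.59, adjusted p = 1.03e-08). Without that library 23 members passed, 4 higher and 19 lower, beside 60.9% of all genes. ZNF14, ZNF43, ZNF98 and ZNF675 had log2 fold changes of -0.12, -0.14, -0.26 and 0.13, with adjusted p from 0.0508 to 0.441.

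Other ZNF genes give the members a family background. On chromosome 19 outside the group, 207 genes with a ZNF symbol were tested, and in N2B27 against PXGL 23 were higher (11.1%) and 69 lower (33.3%), beside 18.9% and 35.1% of members. On other chromosomes 245 were tested, of which 59 were higher (24.1%) and 61 lower (24.9%). With EPZ-6438 against N2B27, 28 of the other chromosome 19 genes were higher (13.5%) and 2 lower (0.966%), with a median log2 fold change of 0.16, while members had 0 higher, 3 lower and a median of -0.03. On other chromosomes 33 were higher and 10 lower (median 0.10). Without PXGL replicate 1 the counts for the other chromosome 19 genes were 24 higher and 85 lower in N2B27 against PXGL, and 44 higher and 7 lower with the inhibitor. On other chromosomes they were then 61 and 66, and 48 and 20. The difference between members and these sets was not tested. Promoters of 12 ZNF genes elsewhere hold both TCCAATCAG and CTTCCGG, among them ZNF107, ZNF138, ZNF273, ZNF680 and ZNF92 on chromosome 7. Of the 12, 2 were higher and 4 lower in N2B27 against PXGL, and 2 were higher and none lower with the inhibitor. Over all tested genes 27.3% were higher and 28.7% lower in the first of these comparisons, and 14.2% and 10.6% in the second. Within the members' own stretch, 10 non-coding genes and pseudogenes were tested and 5 of them fell in N2B27, where 28.7% of all tested genes fell. Without PXGL replicate 1, 11 were tested and 5 fell. Among the 5 with all libraries were LINC00663 and ZNF849P, at only 0.753 and 3.36 CPM in PXGL in the mean. LINC00664, a long non-coding RNA that shares 2.72% of the 50-base words of ZNF429, was at 19.9 ± 3.20 CPM in PXGL and 11.4 ± 0.382 CPM in N2B27, a 1.75-fold fall (adjusted p = 6.73e-05).

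**Figure D5:**
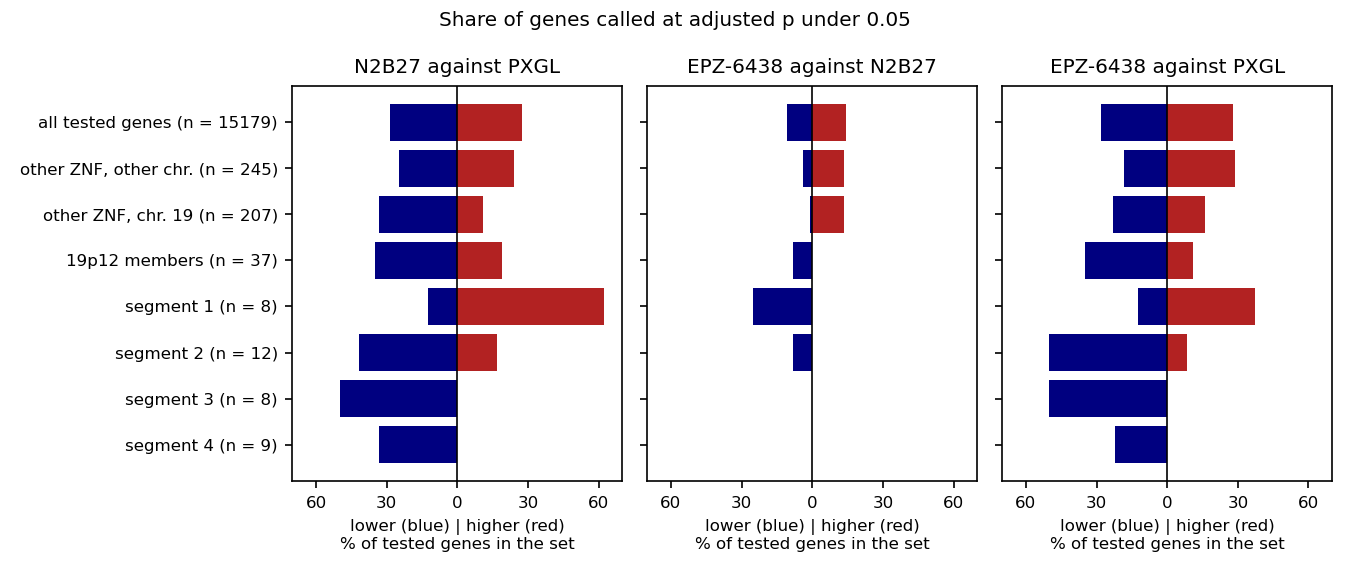
Share of tested genes called higher (red, right) and lower (blue, left) at adjusted p under 0.05 for all tested genes, other ZNF genes, the 37 members and their 4 stretches in order along chromosome 19, in the 3 comparisons. In N2B27 against PXGL 62.5% of the 8 genes of segment 1 (ZNF101 to ZNF486) were higher and none in segments 3 and 4, and with EPZ-6438 against N2B27 the members show no red bar.

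Genes linked to silencing by KRAB zinc finger proteins were followed as a list of 26, all tested. It mixes TRIM28 and its partners with general chromatin and DNA methylation factors and with ZNF274. TRIM28, the common co-repressor, was at 938 ± 67.2, 911 ± 28.9 and 932 ± 24.5 CPM (n = 3 each) and did not pass in any comparison. In N2B27 against PXGL 9 of the 26 rose, 8 fell and 9 did not pass. SMARCAD1, a chromatin remodeller that binds TRIM28, rose 1.42-fold and HELLS, a remodeller needed for DNA methylation, rose 1.38-fold. MPHOSPH8 and TASOR, subunits of the HUSH silencing complex, fell 1.34-fold and 1.36-fold, while another subunit, PPHLN1, rose 1.14-fold. DNMT1 and MORC2, also on the list, rose 1.27-fold and 1.28-fold. TASOR, PPHLN1 and MORC2 are named beyond the rule of up to 4 genes per list, with their values known. ZNF274, a zinc finger protein that recruits SETDB1 through TRIM28, had the largest decrease of the list, 1.38-fold, and was named after its values were seen. With EPZ-6438 against N2B27 2 rose, 8 fell and 16 did not pass. HELLS fell 1.72-fold from 203 ± 5.83 to 118 ± 1.80 CPM (log2 -0.79, adjusted p = 2.13e-07). UHRF1, which directs maintenance DNA methylation, fell 1.37-fold, SMARCAD1 fell 1.31-fold and the HP1 gene CBX1 fell 1.21-fold. The 2 that rose were ZNF274 (1.28-fold, adjusted p = 0.00807) and MPHOSPH8 (log2 0.22, adjusted p = 0.0475). In the inhibitor group against PXGL 3 rose and 9 fell, led by UHRF1 (1.55-fold lower) and MORC3. With PXGL replicate 1 left out, the counts in these 3 comparisons were 9 higher and 10 lower, 4 and 12, and 6 and 12, and TRIM28 again did not pass. More of the list then passed in each comparison, as did more of all genes. Over all tested genes 56%, 24.7% and 56.1% passed with every library, and 61.2%, 37.2% and 60.9% without that one.

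A list of 16 genes and RNAs derived from or associated with endogenous retroviruses or LINE-1, the kind of sequence many of these proteins bind, had 13 tested members. Host genes such as HHLA1, ABHD12B and SCGB3A2 are of the associated kind, and the counts below mix both kinds. In N2B27 against PXGL 9 rose, 3 fell and 1 did not pass. L1TD1, a domesticated LINE-1 gene of pluripotent cells, rose 4.11-fold from 234 ± 30.9 to 963 ± 74.7 CPM. The retroviral envelope gene ERVMER34-1 rose 6.16-fold from 1.60 ± 0.189 to 9.88 ± 0.999 CPM, and ERVW-1, which encodes syncytin-1, fell 7.13-fold from 24.4 ± 1.67 to 3.41 ± 0.337 CPM. With EPZ-6438 against N2B27 3 rose and 4 fell. ERV3-1 rose 1.91-fold (adjusted p = 0.0324), ERVW-1 rose 1.48-fold (adjusted p = 0.014) and ERVH48-1 rose 1.18-fold, and among those that fell were HHLA1 (1.87-fold), ESRG (1.37-fold) and L1TD1 (1.28-fold). In the inhibitor group against PXGL 8 rose and 2 fell. The counts without PXGL replicate 1 were 10 higher and 3 lower, 3 and 4, and 8 and 3 in the same order. The shares of all genes passing, with and without that library, are those given for the list of 26. These are single host genes, and transcripts of the repeats themselves, such as SVA or young LINE-1 copies, were not analysed here.

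Read sharing between members was measured on GENCODE 29 transcripts. A median of 99.88% of a member's 100-base words occurred in no other gene on either strand, and 93.93% of its 50-base words. Below 90% at 100 bases were ZNF724 (58.11%), ZNF98 (76.26%), ZNF492 (81.28%) and ZNF90 (85.91%), and the values of these 4 are uncertain. ZNF98 and ZNF492 are each other's closest partner, with 37.6% and 29.4% of 50-base words in common. With both summed to 1 gene, an alternative added after the data were seen, the log2 fold change was -0.07 in N2B27 against PXGL (adjusted p = 0.491) and -0.04 with the inhibitor (adjusted p = 0.76). ZNF724 shared 43.6% of its 50-base words with AC092329.3, and ZNF729 shared 7.15% with ZNF99. Of the members' 333 deposited values above 0, 65.2% were not whole numbers, against 16.5% over all genes and 24.9% over other ZNF genes of chromosome 19. A value can be not whole where a read is divided between genes, but the counting program is not named. The sets were not matched for expression level. ZNF208 shared 8.98% of its 50-base words with the opposite strand of the pseudogene MTDHP2, and because strandedness is not given such reads cannot be told apart.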

How the data were processed

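The table deposited by the authors holds expected counts (estimates, not all whole numbers) of 40332 symbols in 9 libraries. The submitters' processing notes list hg38, STAR 2.7.6a, Trim Galore and DESeq2; the sources used here name no counting program, annotation or strandedness. Per the labels' protocols, libraries were made after ribosomal RNA depletion, whereas the molecule label names polyA RNA. Expected counts were rounded, filtered with edgeR's filterByExpr (15179 of 22640 counted genes kept) and fitted in 1 model over the 9 libraries with a term for each group (edgeR 4.0.16, R 4.3.3, TMM scaling, robust quasi-likelihood fit). P-values were Benjamini-Hochberg adjusted over all tested genes, and adjusted p under 0.05 counted as changed. The fit was tested on simulated counts. Same-numbered libraries showed no shared deviation across groups, and the labels do not say whether they were paired.

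GENCODE 29 gave positions and exon lengths (40219 symbols matched) and transcripts for the word counts; promoter sequences came from RefSeq (GRCh38.p14). Members, gene lists, stretches and rules for named genes were chosen with earlier results of these data known. The rule gives up to 8 called members per comparison by size of change, plus ZNF91, ZNF93, ZNF675, ZNF676, ZNF729, ZNF208, ZNF43, ZNF98 and ZNF14, and up to 4 called genes per list. Alternatives were DESeq2 (1.42.0) and its size factors, 2 other filters, unrounded counts, only the groups compared, a replicate block, a test against a 1.5-fold change, leaving out each library, and ZNF98 and ZNF492 summed.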

Additional observations from a re-analysis of the deposited data

How the results depend on the processing

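Of 1992 member results under the alternatives, 1843 kept their direction and side of the threshold, 47 changed sign with no call in either fit, 67 lost a call, 35 gained one, and none of those called reversed. Apart from the test against a 1.5-fold change, all alternatives kept 2 of 3 calls for EPZ-6438 against N2B27 (ZNF738 was lost in some), 17 of 20 for N2B27 against PXGL (not ZNF681, ZNF708 and ZNF737) and 16 of 17 for the inhibitor against PXGL (not ZNF431). The 1.5-fold test left 724, 2956 and 2928 genes in these comparisons, with 0 members higher in each and 0, 3 and 3 lower. Of the genes called for the inhibitor against N2B27, it put 85.1% higher, against 57.3%. Fitting only the inhibitor and N2B27 groups gave 5641 genes with 4 members higher and 6 lower. Without PXGL replicate 1 the count was 5770 with 4 and 6. Leaving out each library in turn gave 2762 to 5770 genes, 0 to 4 members higher and 2 to 6 lower for the inhibitor against N2B27. For N2B27 against PXGL it gave 7663 to 9506 genes, 6 to 8 higher and 11 to 19 lower, and for the inhibitor against PXGL 7599 to 9452, 4 to 5 and 12 to 19. Summed member levels stayed within 1 SD under other scalings, and the PXGL sum was 2523 CPM without replicate 1. The replicate block gave 3696, 8507 and 8489 genes and 3, 19 and 19 members. Same-numbered libraries did not deviate together (correlations of -0.026 to 0.037, none of 9 over 0.1). This cannot show that they were unpaired, since a shared culture or day need not leave a visible deviation. The median share of unique words was 93.93% with 50-base words. Libraries held 14482105 to 18358530 counts. In N2B27 against PXGL the widest SEs were 0.18 for the low member ZNF730 and 0.18 and 0.17 for the abundant ZNF729 and ZNF208. Leaving out PXGL replicate 1 adds 7, 6 and 6 member calls in the comparisons as ordered above.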
